A study of Mus musculus with 8 samples.

Results

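The genes described here are 10 genes that govern proliferation and survival of lymphoid progenitors. They are Myc, Mycn, Ccnd2, Ccnd3, Cdk6, Cdkn1b, Cdkn2a, Bcl2, Bcl2l1 and Mcl1. They were given as a list of names, with no threshold on a measured value, and are 10 of the 21755 protein-coding genes of the GENCODE M21 annotation on chromosomes 1 to 19 and X of mouse build GRCm38. For each gene, peaks of 5-hydroxymethylcytosine (5-hmC) were counted over the gene body with 5 kb on each side, and the bases under peaks were summed over the same window.

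The 4 libraries came from an hMeDIP-seq experiment, in which sonicated DNA that carries 5-hmC is pulled down with an antibody and sequenced. DNA was taken from bone marrow pro-B cells of C57BL/6 mice aged 4 to 6 weeks, sorted as B220+CD43+IgM- cells. Of these libraries, 2 are labelled wild-type and, by the methods of the study, came from Hdac7 +/- littermates, which keep 1 working copy of the gene. The other 2 are labelled Hdac7 fl/- and are called HDAC7-deficient. In these mice the floxed allele is deleted by Cre recombinase expressed from the mb1 (Cd79a) locus, which is active from the early B lineage on. The null allele is common to both genotypes, and the other Hdac7 allele is intact in the littermates and floxed in the HDAC7-deficient mice. The methods do not state whether the littermates also carry the Cre allele. An effect of that allele therefore cannot be told apart from loss of HDAC7. Where a sentence gives a pair of values for a genotype, library 1 comes before library 2, and "without HDAC7" stands for the HDAC7-deficient pair. Nothing in the labels says whether replicates came from separate mice, so every p-value measures only the spread between these libraries. Neither the surface markers of the sort nor the loss of HDAC7 could be checked, because peak positions hold no expression. Over Hdac7 itself 10594 and 9520 bp lay under peaks in wild-type libraries against 7487 and 9964 bp without HDAC7, and the genotypes overlapped.

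Pro-B cells divide under interleukin-7 before they rearrange the immunoglobulin light chain genes. MYC proteins drive growth, D-type cyclins with CDK6 release the RB brake on the G1 phase, and CDK inhibitors such as p27 hold it. Survival through this stage depends on anti-apoptotic proteins of the BCL-2 family, which bind BH3-only proteins and keep the mitochondrial membrane intact. TET enzymes oxidise methylated cytosine to 5-hmC, which in many tissues is found in gene bodies and at enhancers and is scarce at CpG-rich promoters that are free of methylation.

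Each library holds between 1303934 and 1413285 peaks on chromosomes 1 to 19 and X, which cover between 8.72% and 10.38% of the genome. The lists give positions without heights, so sequencing depth is unknown and no counting interval can be given. HDAC7-deficient library 2 stands apart, because its peaks cover 11.75% to 11.92% of chromosomes 15 to 19 but 9.48% to 10.25% of chromosomes 1 to 13. The other 3 libraries show no such step. On the X chromosome it covers 11.01%, against 4.01% in HDAC7-deficient library 1. For this reason the comparison of whole gene windows was repeated with every value divided by the library's own density on the same chromosome. The division also removes differences between libraries on chromosomes without this step. On chromosome 1 peaks covered 9.25% and 10.63% in wild-type libraries against 9.15% and 10.24% without HDAC7. With 2 libraries per genotype a two-sided exact permutation test cannot give a p below 0.333, so no difference in a single gene can pass a threshold of 0.05. A gene is called lower or higher below only in the sense that both HDAC7-deficient libraries lie below or above both wild-type libraries. Overlapping peaks of the 4 libraries were also merged into regions, and a region is called gained when both HDAC7-deficient libraries and no wild-type library have a peak in it, and lost in the opposite case.

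The sequences that the results turn on are shown first, 5′ to 3′ on the strand of the gene, in GRCm38 coordinates. Capitals mark CpG dinucleotides, the sites where most 5-hmC lies, except in the Cdk6 sequence. The first set are promoters, taken from RefSeq on GRCm38.p6 and shown outside annotated UTRs. Those of Mcl1, Bcl2 and Cdkn1b are shown because few or no bases in them lay under a peak, and that of Cdk6 because peaks lay there in 1 genotype. Of the 10 genes, 8 matched this table, with 12 promoters (250 bases before to 50 after a start site). Myc and Ccnd2 had no entry. The Mcl1 promoter lies at chr3:95658471-95658770 (+), that of Bcl2 at chr1:106714275-106714540 (-) and that of Cdkn1b at chr6:134920151-134920400 (+). The Cdk6 stretch lies at chr5:3343789-3343892 (+), and its capitals mark bases under a peak of at least 1 library, here every base and in wild-type libraries alone.
Mcl1 promoter: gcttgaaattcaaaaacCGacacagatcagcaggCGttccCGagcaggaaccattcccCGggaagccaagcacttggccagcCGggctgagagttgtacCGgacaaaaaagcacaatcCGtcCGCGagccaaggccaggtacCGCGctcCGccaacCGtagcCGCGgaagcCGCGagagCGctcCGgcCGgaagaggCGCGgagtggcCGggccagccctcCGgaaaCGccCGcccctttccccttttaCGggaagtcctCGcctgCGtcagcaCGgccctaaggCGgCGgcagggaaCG
Bcl2 promoter: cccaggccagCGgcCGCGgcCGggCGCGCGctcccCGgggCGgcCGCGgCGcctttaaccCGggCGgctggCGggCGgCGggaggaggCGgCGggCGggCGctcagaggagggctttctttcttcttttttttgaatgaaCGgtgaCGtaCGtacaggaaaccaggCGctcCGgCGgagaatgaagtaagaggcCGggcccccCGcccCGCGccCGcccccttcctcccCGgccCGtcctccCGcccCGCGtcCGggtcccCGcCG
Cdkn1b promoter: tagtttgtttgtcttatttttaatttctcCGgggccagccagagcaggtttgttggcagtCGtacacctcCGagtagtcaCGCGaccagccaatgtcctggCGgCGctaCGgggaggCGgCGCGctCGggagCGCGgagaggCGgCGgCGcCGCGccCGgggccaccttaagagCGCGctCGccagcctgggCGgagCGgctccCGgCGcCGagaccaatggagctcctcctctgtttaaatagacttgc
Cdk6 promoter: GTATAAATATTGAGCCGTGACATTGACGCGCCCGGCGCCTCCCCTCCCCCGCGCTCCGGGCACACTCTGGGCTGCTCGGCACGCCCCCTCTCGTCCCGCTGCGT

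The second set are, for 5 of the genes, the widest stretch that lay under a peak in each of the 4 libraries. They are an intron of Ccnd3 at chr17:47566378-47566611 (+), the upstream flank of Cdkn1b at chr6:134915783-134916009 (+) and an intron of Cdkn2a at chr4:89279814-89279925 (-). Those of Bcl2 and Bcl2l1 are also intronic, at chr1:106546705-106546981 (-) and chr2:152807796-152808008 (-). Those of Myc, Ccnd2 and Cdk6 are not printed. The Cdkn1b stretch holds 0 CpG and the Ccnd3 stretch 1. A shared peak alone does not show 5-hmC at these bases, because the input libraries were not analysed here.
Ccnd3 shared: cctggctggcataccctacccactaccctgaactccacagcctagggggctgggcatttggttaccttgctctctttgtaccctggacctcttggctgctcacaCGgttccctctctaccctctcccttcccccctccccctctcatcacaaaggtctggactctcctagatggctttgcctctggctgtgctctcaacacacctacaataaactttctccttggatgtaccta
Cdkn1b shared: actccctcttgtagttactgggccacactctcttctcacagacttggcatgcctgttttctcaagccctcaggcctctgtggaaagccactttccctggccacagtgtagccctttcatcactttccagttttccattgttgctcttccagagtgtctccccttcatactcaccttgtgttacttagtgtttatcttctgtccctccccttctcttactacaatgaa
Cdkn2a shared: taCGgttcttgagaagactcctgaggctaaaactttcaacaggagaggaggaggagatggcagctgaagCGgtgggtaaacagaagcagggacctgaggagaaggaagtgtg
Bcl2 shared: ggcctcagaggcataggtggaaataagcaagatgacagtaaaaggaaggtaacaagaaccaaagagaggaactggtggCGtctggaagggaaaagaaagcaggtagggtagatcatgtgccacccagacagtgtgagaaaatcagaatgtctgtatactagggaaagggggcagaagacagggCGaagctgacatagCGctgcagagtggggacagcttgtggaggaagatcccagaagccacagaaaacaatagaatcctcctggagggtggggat
Bcl2l1 shared: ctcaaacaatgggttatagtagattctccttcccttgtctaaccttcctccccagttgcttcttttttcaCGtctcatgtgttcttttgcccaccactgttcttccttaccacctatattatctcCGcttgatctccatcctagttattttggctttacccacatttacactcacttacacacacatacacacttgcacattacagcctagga

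The third set differed between the genotypes and was picked for that, so the sequences are a description and carry no test. The stretch of Bcl2l1 lies in and beside its first coding exon at chr2:152829375-152829674 (-), under peaks of both HDAC7-deficient libraries and of no wild-type library. The other 2 stretches had the opposite pattern. They lie in the first coding exon of Bcl2, at chr1:106712284-106712398 (-), and downstream of Mcl1, at chr3:95667451-95667628 (+).
Bcl2l1 HDAC7-deficient only: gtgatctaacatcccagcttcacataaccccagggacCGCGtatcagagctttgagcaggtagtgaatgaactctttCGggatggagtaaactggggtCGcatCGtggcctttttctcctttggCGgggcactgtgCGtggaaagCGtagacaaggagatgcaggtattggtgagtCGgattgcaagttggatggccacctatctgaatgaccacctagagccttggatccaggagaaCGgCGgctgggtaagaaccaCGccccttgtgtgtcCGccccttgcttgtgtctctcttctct
Bcl2 wild-type only: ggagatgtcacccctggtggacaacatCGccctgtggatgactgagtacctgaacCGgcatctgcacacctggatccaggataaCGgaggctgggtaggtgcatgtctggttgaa
Mcl1 wild-type only: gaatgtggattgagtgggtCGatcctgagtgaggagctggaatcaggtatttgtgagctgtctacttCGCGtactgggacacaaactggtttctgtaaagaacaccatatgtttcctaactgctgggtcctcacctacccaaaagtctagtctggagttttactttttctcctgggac

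None of the 10 genes was higher in covered bases, the sum of bases under peaks, a pattern that 10% of all protein-coding genes showed. Fewer bases were found in 5 genes, Myc, Ccnd3, Cdk6, Bcl2 and Mcl1, against 17.1% of all protein-coding genes. The remaining 5 genes overlapped between genotypes. The median ratio of HDAC7-deficient to wild-type covered bases was 0.894 over the 10 genes and 0.967 over all protein-coding genes. By number of peaks, no gene was higher (12% of all genes) and 3 were lower, Myc, Cdkn2a and Bcl2 (10.8% of all genes). The median peak ratio was 0.766, beside 1 over all genes.

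These calls moved with the scaling. After division by the chromosome's density, covered bases were lower for Mcl1 and Cdkn2a, higher for Bcl2l1, and overlapped for the other 7 genes, so that the calls for Myc, Ccnd3, Cdk6 and Bcl2 were lost. Those of Cdk6 and Bcl2 had rested on a gap of 14 bp between HDAC7-deficient library 2 and wild-type library 2. Under this scaling 16.96% of all protein-coding genes were lower and 13.21% higher. Mcl1 was the 1 gene with fewer covered bases in both scalings. With HDAC7-deficient library 2 left out, 6 genes were lower in covered bases (Cdkn2a beside the 5) and 2 higher, Mycn and Ccnd2, where 41.5% of all protein-coding genes were lower and 18.1% higher. By peaks the same division gave 6 lower genes, Myc, Mycn, Cdkn1b, Cdkn2a, Bcl2 and Bcl2l1, and none higher, where 18.03% of all protein-coding genes were lower and 12.7% higher.

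**Figure D1:**
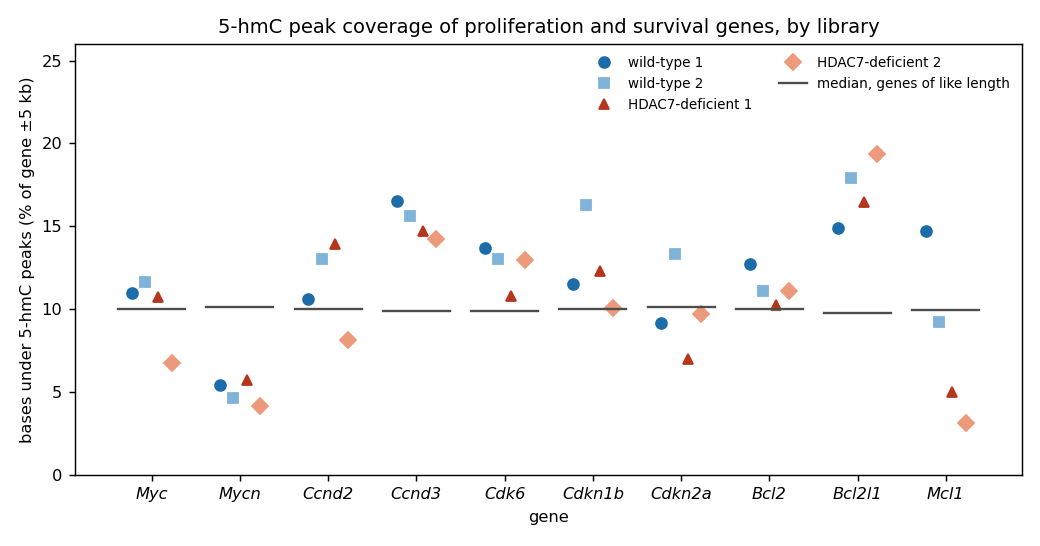
Bases under 5-hmC peaks as a percentage of the gene with 5 kb on each side (vertical axis), for the 10 genes (horizontal axis). Each point is 1 library and each horizontal line is the median of protein-coding genes of like length (within 25%). The 4 points of Bcl2l1 and of Ccnd3 lie above 14%, and those of Mycn below 6%. Those of Mcl1 lie at 14.74% and 9.215% in wild-type libraries and at 5.01% and 3.14% in HDAC7-deficient libraries.

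**Figure D2:**
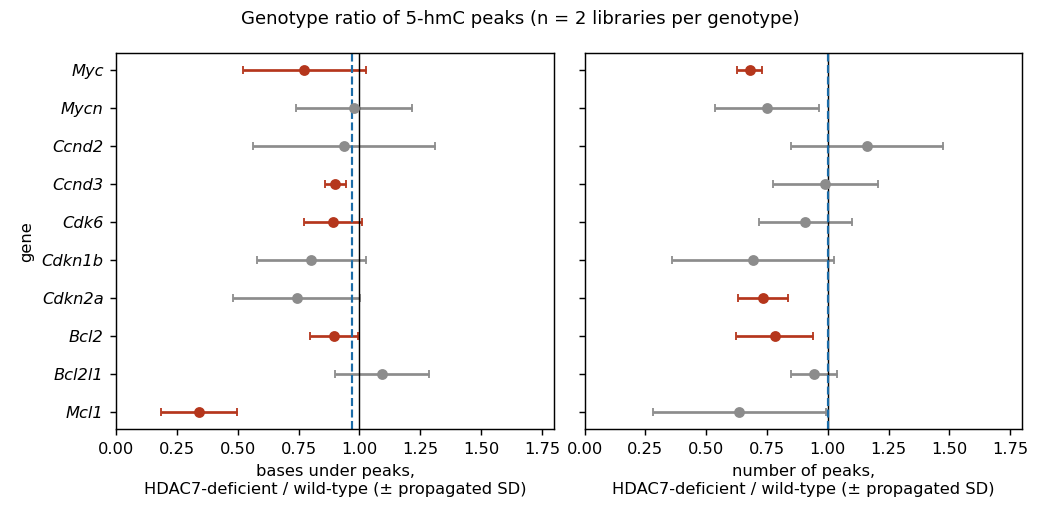
Ratio of the HDAC7-deficient to the wild-type mean (horizontal axes) for bases under peaks (left) and number of peaks (right), with the SD propagated from 2 libraries per genotype. Red points are genes whose 2 HDAC7-deficient libraries both lie below both wild-type libraries, grey points overlap, the solid line is 1 and the dashed line is the median of all protein-coding genes. Mcl1 has the lowest ratio of covered bases, 0.340.

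Myc (ENSMUSG00000022346, chr15:61985391-61990374, +) encodes the transcription factor that drives ribosome production and cell growth. The number of peaks in its window was 14 in either wild-type library, 10 and 9 without HDAC7. The ratio was 0.679 ± 0.0505 (SD, n = 2 per genotype; two-sided exact permutation test, p = 0.333, the smallest it can give). Covered bases were 1641 and 1742 bp in wild-type libraries against 1608 and 1007 bp without HDAC7, a ratio of 0.773 ± 0.253 (SD). Wild-type library 1 and HDAC7-deficient library 1 differed by 33 bp, and HDAC7-deficient library 2 was the low one of the 4. With 10 kb or with 2 kb of flank the call was not the same for both measures: covered bases overlapped at 10 kb and peaks overlapped at 2 kb. The size of the difference depended on the window, and over the gene body alone the ratio was 0.336 for covered bases, from 779 and 703 bp in wild-type libraries against 276 and 222 bp without HDAC7, and 0.3 for peaks. Mean coverage of the window, 10.01% ± 2.22 (SD over 4 libraries), was close to that of genes of like length (median 9.99%).

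The longest stretch of Myc under peaks of all 4 libraries lay in its coding sequence. In all 4 libraries a peak met the stretch chr15:61988027-61988184, 158 bp of a coding exon, which begins 2636 bp after the start site and holds 13 CpG. Coding exons carried 504 and 301 bp under peaks in wild-type libraries against 191 and 222 bp without HDAC7. Beyond the end of the gene a further 72 bp were shared by all 4. Within 500 bp of the start site, peaks covered 23 bp in wild-type library 1 and none in the other 3 libraries. There was no region gained or lost by the genotypes in the window of Myc.

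Mycn (ENSMUSG00000037169, chr12:12936093-12941914, -), the paralogue expressed in early progenitors, was the least covered of the 10 genes. Peaks covered 858 and 738 bp in wild-type libraries against 902 and 659 bp without HDAC7, a ratio of 0.978 ± 0.239 (SD), which was 1.47 with peaks at least 200 bp wide. Its 4.99% ± 0.702 (SD over 4 libraries) was above that of 9.37% of the 2488 genes of like length. Peaks numbered 7 and 5 in wild-type libraries against 5 and 4 without HDAC7. Of 14 regions none was present in all 4 libraries, and 8 were found in 1 library alone. The window is nonetheless CpG-rich, with 24.71 CpG per kb against a median of 12.35 in genes of like length. Just before the start site, wild-type library 2 had a peak of 150 bp that ends 12 bp upstream and HDAC7-deficient library 1 a peak of 77 bp, whereas the nearest peak was 457 bp away in wild-type library 1 and 780 bp away in HDAC7-deficient library 2.

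Among the D-type cyclins, which switch on CDK4 and CDK6, Ccnd3 is the form that dividing precursor B cells depend on, and it was densely covered. Ccnd3 (ENSMUSG00000034165, chr17:47505051-47599691, +) had 17323 and 16315 bp under peaks in wild-type libraries against 15388 and 14892 bp without HDAC7. The ratio was 0.9002 ± 0.0435 (SD; two-sided exact permutation test, p = 0.333), and the libraries of the genotypes did not overlap. Relative to the density of chromosome 17, where HDAC7-deficient library 2 has dense peaks, the value of that library was the lowest of the 4, at 1.198, beside 1.58 in HDAC7-deficient library 1, 1.46 in wild-type library 2 and 1.74 in wild-type library 1. The groups then overlapped. The number of peaks, 108 and 91 in wild-type libraries against 111 and 86 without HDAC7, also overlapped.

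Coverage of Ccnd3 averaged 15.27% ± 1.03 (SD over 4 libraries), more than in 97.5% of the 1581 genes of like length. Of its 186 regions, 22 were present in all 4 libraries, 2 were gained and 5 were lost. The widest lost region was 977 bp of an intron, chr17:47517607-47518583, in which peaks covered 767 and 885 bp in wild-type libraries 1 and 2. The widest gained region was 447 bp of intron, chr17:47511297-47511743. The window of Ccnd3 also contains bases of Taf8 and Bysl, which cannot be told apart from it there. In the 5 kb upstream of the gene, covered bases were lower, with 457 and 607 bp in wild-type libraries against 121 and 391 bp without HDAC7.

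Ccnd2 (ENSMUSG00000000184, chr6:127125162-127152193, -), the cyclin D gene that responds early to growth signals, did not separate the genotypes. It had 3917 and 4824 bp under peaks in wild-type libraries against 5167 and 3013 bp without HDAC7, so that the HDAC7-deficient libraries were the highest and the lowest of the 4. The ratio was 0.936 ± 0.375 (SD). Peaks numbered 23 and 27 in wild-type libraries against 34 and 24 without HDAC7. Its window overlaps 2 antisense genes, Gm43126 and 9330179D12Rik. Regions gained and lost numbered 4 and 3 of 52. The widest lost region, 372 bp at chr6:127155317-127155688, lies at -3124 bp from the start site, which is upstream, and holds 20 CpG.

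Cdk6 (ENSMUSG00000040274, chr5:3341485-3531008, +) encodes the kinase that the D-type cyclins activate and is the longest of the 10 genes. Peaks covered 27310 and 25938 bp in wild-type libraries against 21583 and 25924 bp without HDAC7, a ratio of 0.892 ± 0.120 (SD). HDAC7-deficient library 1 was the low one, and library 2 equalled wild-type library 2 within 14 bp. Peaks numbered 167 and 132 in wild-type libraries against 148 and 123 without HDAC7 and overlapped. The longest stretch common to all libraries, 419 bp at chr5:3412285-3412703 in an intron, was also the longest among the 10 genes. Of 280 regions 33 were present in all 4 libraries, 11 were lost and 3 gained. The widest gained region was 798 bp of intron, chr5:3419765-3420562, with 444 and 798 bp under peaks in HDAC7-deficient libraries 1 and 2.

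At the RefSeq promoter of Cdk6, whose bases are shown above, peaks covered 262 and 70 of 300 bp in wild-type libraries 1 and 2 and none in either HDAC7-deficient library. Close to the start of the GENCODE gene, which lies upstream of this promoter, the pattern was not by genotype: within 500 bp of it peaks covered 111 bp in wild-type library 1, 191 bp in HDAC7-deficient library 2 and none in the others. The share of all RefSeq promoters that lay under peaks of wild-type libraries alone was not counted.

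Cdkn1b and Cdkn2a encode brakes of the cycle, p27, which inhibits cyclin-CDK complexes, and p16 with p19ARF, which hold RB and p53 active. Cdkn1b (ENSMUSG00000003031, chr6:134920401-134925513, +) had 1744 and 2462 bp under peaks in wild-type libraries against 1856 and 1517 bp without HDAC7, a ratio of 0.802 ± 0.225 (SD) with overlapping groups. Peaks numbered 12 and 14 in wild-type libraries against 12 and 6 without HDAC7. Both stretches under peaks of all 4 libraries lay in the flanks. The widest region in all 4 libraries, 1008 bp at chr6:134915395-134916402, ended upstream, at -3999 bp from the start site, and peaks covered 743, 615, 488 and 397 bp of it in wild-type libraries 1 and 2 and HDAC7-deficient libraries 1 and 2. The promoter itself is rich in CpG. Cdkn1b was the only one of the 10 genes with peak bases within 500 bp of the start site in every library, at 26 and 322 bp in wild-type libraries against 100 and 7 bp without HDAC7, as had 18.72% of all protein-coding genes.

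Cdkn2a (ENSMUSG00000044303, chr4:89274471-89294653, -) had 19 and 22 peaks in wild-type libraries against 14 and 16 peaks without HDAC7. The ratio was 0.732 (two-sided exact permutation test, p = 0.333), and 3 peaks separated the nearest libraries of the genotypes. Covered bases, 2769 and 4019 bp in wild-type libraries against 2101 and 2936 bp without HDAC7, gave 0.742 ± 0.260 (SD) with overlap. Relative to the density of chromosome 4 the values were 0.993 and 1.27 in wild-type libraries against 0.758 and 0.978 without HDAC7, which no longer overlapped.

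In the 5 kb upstream of Cdkn2a peaks covered 342 and 674 bp in wild-type libraries against 121 and 188 bp without HDAC7. A lost region of 349 bp, chr4:89295233-89295581, lies upstream at -580 bp from the start site and holds 36 CpG, with 158 and 283 bp under peaks in wild-type libraries 1 and 2. In the HDAC7-deficient libraries the nearest peak was 2970 and 3063 bp from the start site. In wild-type library 1 a peak covered the start site itself, with 119 bp within 500 bp, and in wild-type library 2 the nearest lay 646 bp away.

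Over all 10 genes, covered bases of the 5 kb upstream were lower in both HDAC7-deficient libraries for 3 genes, Ccnd3, Cdkn2a and Mcl1, and higher for none. Among all protein-coding genes the shares were 16.8% lower and 13.3% higher. Pooled over the genes, the upstream flanks were covered to 11.42% and 9.85% in wild-type libraries against 7.66% and 5.96% without HDAC7. The last 1 kb before the start site had no peak base at any of the 10 genes in HDAC7-deficient library 2, beside a mean of 6.51% in HDAC7-deficient library 1 and of 11.56% and 12.66% in the wild-type libraries. All protein-coding genes averaged 10.32% in HDAC7-deficient library 2 in that bin. The share of all genes without a peak base there was not counted. Single genes lacked one in the other libraries too. These were Ccnd2 and Bcl2 in wild-type library 1, and Myc, Ccnd2, Cdk6 and Bcl2 in wild-type library 2. In HDAC7-deficient library 1 they were Myc, Ccnd3, Cdkn2a and Bcl2.

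Within 500 bp of the start site the 10 genes held few peak bases. The mean over the genes was 3.95%, 6.40%, 3.79% and 1.98% of the window in wild-type libraries 1 and 2 and HDAC7-deficient libraries 1 and 2. Over all protein-coding genes it was 9.47%, 11.04%, 9.78% and 9.43%. Bcl2 had none in any library, which was true of 22.75% of all genes. In the promoter table, 5 of the 12 promoters of the 10 genes had no peak base in any library and none had a peak in all 4. The same shares over all 32851 RefSeq promoters were not counted, so these counts cannot be called particular to the 10 genes.

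**Figure D3:**
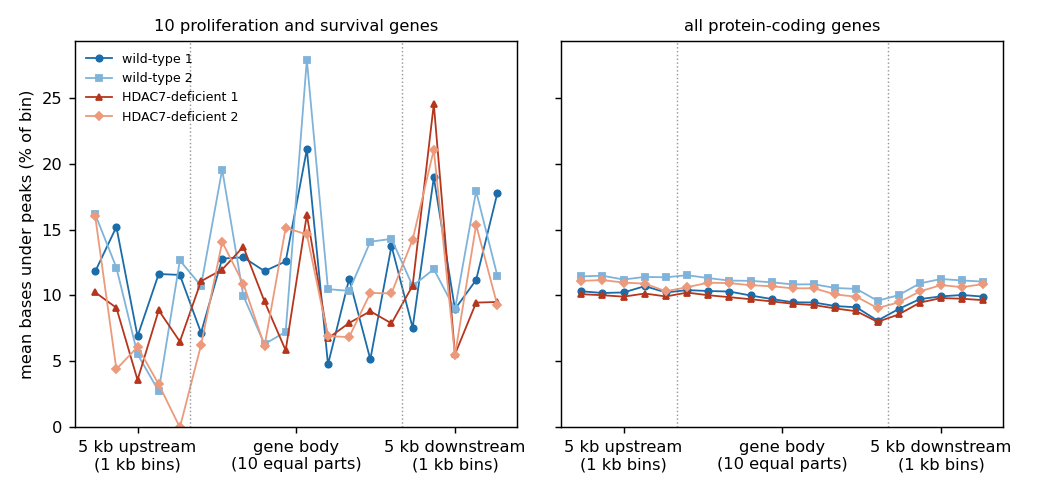
Mean percentage of bases under 5-hmC peaks (vertical axis) in 1 kb bins of the 5 kb flanks and in 10 equal parts of the gene body (horizontal axis), for the 10 genes (left) and all protein-coding genes (right). Each line is 1 library. The 10 genes vary between bins from 0% to 27.87%, and HDAC7-deficient library 2 reaches 0% in the last 1 kb before the start site, where all genes average 10.32%.

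Among the anti-apoptotic genes were both the most covered window, that of Bcl2l1, and the one with the lowest genotype ratio, that of Mcl1. Mcl1 (ENSMUSG00000038612, chr3:95658788-95663176, +) encodes a short-lived BCL-2 relative that lymphoid progenitors need to survive. Its window had 2121 and 1326 bp under peaks in wild-type libraries against 721 and 452 bp without HDAC7. Both HDAC7-deficient values lay below both wild-type values, with a gap of 605 bp between the nearest. The ratio was 0.340 ± 0.157 (SD, n = 2 per genotype; two-sided exact permutation test, p = 0.333, the smallest it can give). A ratio as low was found in 0.880% of the 1932 genes of like length. Mcl1 has the lowest ratio of the 10 genes, so this share describes a gene picked as the extreme and is not a test. Divided by the density of chromosome 3 the values were 1.64 and 0.880 in wild-type libraries against 0.564 and 0.314 without HDAC7. Mcl1 was also lower with the gene body alone, with 2 kb or 10 kb of flank, with peaks at least 200 bp wide and with neighbouring peaks merged. The size depended on these settings, with a ratio of 0.620 for the gene body alone, 0.551 with 10 kb of flank and 0.147 with peaks at least 200 bp wide. Its peak numbers, 14 and 8 in wild-type libraries against 9 and 5 without HDAC7, overlapped.

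The wild-type libraries were not alike at Mcl1, and wild-type library 1 was 795 bp above library 2. Coverage was above that of 82.5%, 40.4%, 17.8% and 8.28% of genes of like length in wild-type libraries 1 and 2 and HDAC7-deficient libraries 1 and 2. Peaks were also narrower, with 151.5 and 165.8 bp covered per peak in wild-type libraries against 80.1 and 90.4 bp without HDAC7. None of the 24 regions of Mcl1 was present in all 4 libraries. The lower coverage lay in the flanks and in exonic bases outside the coding sequence. In the upstream flank peaks covered 538 and 241 bp in wild-type libraries against 17 and 0 bp without HDAC7. In the exonic bases outside the coding sequence they covered 525 and 671 bp in wild-type libraries against 240 and 187 bp without HDAC7. In the 5 kb downstream flank they covered 824 and 414 bp in wild-type libraries against 156 and 113 bp without HDAC7. Coding exons held 50, 0, 159 and 6 bp in the same order. The single lost region of the window, 252 bp at chr3:95658026-95658277, ends upstream at -511 bp from the start site.

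**Figure D4:**
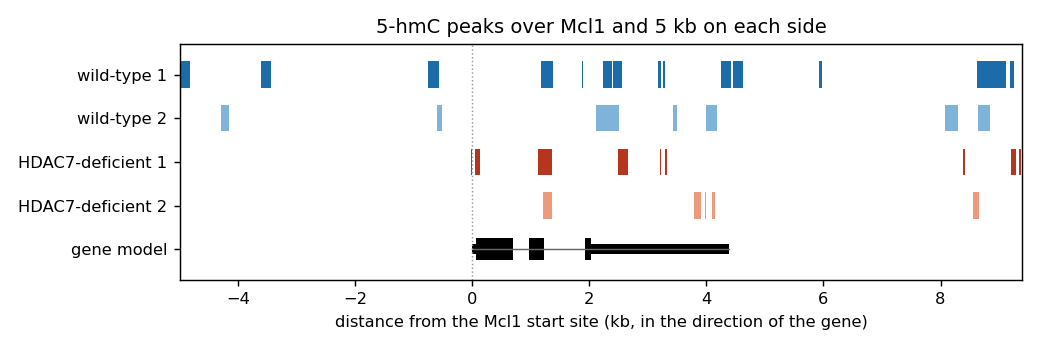
5-hmC peaks (boxes) in each of the 4 libraries over Mcl1, by distance from its start site in kb in the direction of the gene (horizontal axis), above a model with coding exons as tall and other exons as low boxes. Wild-type library 1 has 14 peaks, wild-type library 2 has 8, and HDAC7-deficient libraries 1 and 2 have 9 and 5, with a summed 721 and 452 bp in the HDAC7-deficient libraries.

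Bcl2l1 (ENSMUSG00000007659, chr2:152780668-152831728, -), which encodes BCL-XL, an outer-membrane protein that blocks BAX and BAK, was the most densely covered of the 10 genes. Peaks covered 9077 and 10950 bp in wild-type libraries against 10054 and 11835 bp without HDAC7. The ratio of 1.09 ± 0.192 (SD) did not separate the genotypes in bases. Coverage averaged 17.16% ± 1.94 (SD over 4 libraries), above that of 99.0% of the 2326 genes of like length, and the share was between 94.2% and 99.5% in single libraries. Relative to chromosome 2 the values were 1.64 and 1.72 in wild-type libraries against 1.84 and 1.96 without HDAC7, and no longer overlapped. Peak numbers, 60 and 61 in wild-type libraries against 61 and 53 without HDAC7, overlapped. Divided by the density of chromosome 2 they went the opposite way to covered bases and were lower without HDAC7. The scaled values were 119.1 and 111.4 in wild-type libraries against 110.8 and 104.7 without HDAC7. Of 98 regions, 12 were in all 4 libraries, 2 were gained and 4 were lost.

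The coding exons of Bcl2l1 were the only ones among the 10 genes with more covered bases in both HDAC7-deficient libraries. Peaks covered 2 and 0 bp of them in wild-type libraries against 323 and 540 bp without HDAC7, of 762 coding bp. In both HDAC7-deficient libraries this came from a single broad peak over the first coding exon. It spanned 755 bp in library 1, chr2:152828932-152829686, and 1001 bp in library 2, chr2:152828903-152829903. Peaks as wide made up 0.151% of all peaks of library 1 and 0.167% of those of library 2. A stretch of 565 bp was under both peaks and free of peaks in both wild-type libraries, with 15 CpG, and 300 bp of it are printed above. Wild-type library 1 had a peak of 65 bp nearby, from 2607 to 2671 bp after the start site, so the merged region was not counted as gained.

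Bcl2 (ENSMUSG00000057329, chr1:106538178-106714274, -), the founding anti-apoptotic gene, showed the reverse at its first coding exon. Coding exons held 115 and 427 bp under peaks in wild-type libraries and none in the HDAC7-deficient libraries, of 729 coding bp. In wild-type library 1 they came from a peak of 117 bp and in wild-type library 2 from peaks of 358 and 186 bp. The stretch printed above was under peaks of both wild-type libraries. Of the 10 genes, covered bases of the coding exons were higher in both HDAC7-deficient libraries for 1, Bcl2l1, beside 10.2% of all protein-coding genes. They were lower for 2, Myc and Bcl2, beside 12.3% of all protein-coding genes. Counts of 1 and 2 among 10 genes are close to these shares, and the contrast between Bcl2 and Bcl2l1 was not tested.

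Over its whole window Bcl2 had 23660 and 20689 bp under peaks in wild-type libraries against 19065 and 20675 bp without HDAC7. The ratio was 0.896 ± 0.0992 (SD), and HDAC7-deficient library 2 lay 14 bp below wild-type library 2. Peaks numbered 152 and 114 in wild-type libraries against 105 and 103 without HDAC7, a ratio of 0.782 (two-sided exact permutation test, p = 0.333). Nearly all covered bases were intronic, as are 166940 of the 186097 bp of the window. Intronic bases under peaks were 22166 and 19039 bp in wild-type libraries against 17776 and 19208 bp without HDAC7. Of 224 regions 29 were in all 4 libraries, 8 were lost and 3 were gained. The widest lost region was 645 bp, chr1:106619096-106619740, and the widest gained was 469 bp, chr1:106701322-106701790, both intronic. The promoter of Bcl2 holds 44 CpG, more than 97.8% of the 32851 RefSeq promoters, and had no peak base in any library.

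**Figure D5:**
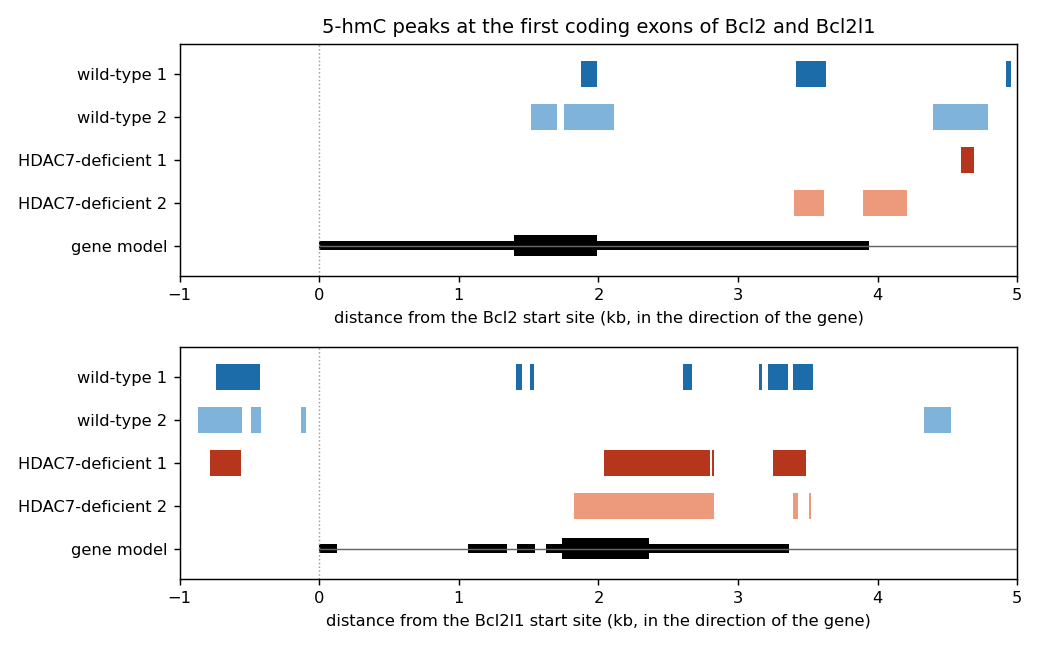
5-hmC peaks (boxes) of the 4 libraries at the first coding exons of Bcl2 (top) and Bcl2l1 (bottom), by distance from the start site in kb in the direction of the gene (horizontal axis), with coding exons as tall boxes in the gene model. Over the coding exon, peaks are seen in the wild-type libraries of Bcl2 and in the HDAC7-deficient libraries of Bcl2l1, where they are 755 and 1001 bp wide.

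Across the 10 windows the 4 lists merged into 964 regions. Of these, 110 (11.41%) were present in all 4 libraries, 14 (1.45%) were gained and 35 (3.63%) were lost. In the windows of all protein-coding genes the shares were 11.85%, 2.83% and 2.49%. A majority, 539 (55.91%), were seen in 1 library alone, against 54.33% in all windows. Lost regions outnumbered gained regions in Ccnd3, Cdk6, Cdkn1b, Cdkn2a, Bcl2, Bcl2l1 and Mcl1, and gained exceeded lost in Ccnd2. Cdkn1b and Mcl1 each had 1 lost region and 0 gained, and Cdkn2a had 2 lost and 0 gained. The share of all protein-coding genes with more lost than gained regions was not counted. None of the regions of Mycn and Mcl1 was found in all 4 libraries.

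The widest region in all 4 libraries was intronic in the cyclin and kinase genes, with 1609 bp in Ccnd3 (chr17:47526764-47528372), 948 bp in Cdk6 (chr5:3411942-3412889) and 880 bp in Ccnd2 (chr6:127135885-127136764). It was also intronic in Bcl2l1, with 1197 bp (chr2:152804316-152805512), and in Bcl2, with 896 bp (chr1:106560864-106561759). In Myc and Cdkn2a it lay downstream of the gene, with 422 bp (chr15:61990387-61990808) and 497 bp (chr4:89270544-89271040). The widest gained regions of Ccnd2 and Bcl2l1 met non-coding exonic bases, with 326 bp (chr6:127128793-127129118) and 223 bp (chr2:152780930-152781152). The widest lost regions of Cdk6 and Bcl2l1 were intronic, with 395 bp (chr5:3424603-3424997) and 329 bp (chr2:152797166-152797494). That of Cdkn1b, 215 bp (chr6:134920554-134920768), lay in exonic bases outside the coding sequence, 153 bp after the start site, and held 20 CpG.

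Most of the windows were rich in CpG. The number of CpG per kb was above that of 90% of such genes in 6 of the 10, Myc, Mycn, Ccnd2, Ccnd3, Cdkn1b and Cdkn2a. Bcl2 and Bcl2l1 had 8.40 and 9.65 CpG per kb, below the medians of 9.498 and 11.11. The most covered window, that of Bcl2l1, was thus poor in CpG, and the least covered, that of Mycn, was rich in it.

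Of 50 other cell cycle and survival genes, 5 had more covered bases in both HDAC7-deficient libraries and 16 fewer, with a median ratio of 0.879, beside the 10% and 17.1% of all protein-coding genes. By peaks 4 were higher and 7 lower, beside 12% and 10.8%. Both measures were lower together in 5 of them and higher together in none. The share of all protein-coding genes for both measures together was not counted. Division by the chromosome's density was not repeated for these 50 genes. By covered bases, 2 of the 6 other G1 cyclins and kinases were higher and 2 lower, with a median ratio of 1.16. Of the 4 S and M phase cyclins and their kinase 1 was higher and 2 lower. Of the 5 other CDK inhibitors 1 was lower, as was 1 of 5 genes of the p53 pathway. Among the RB and E2F genes 4 of 9 were lower, and among the MYC and MAX network genes 4 of 10. In the BCL-2 family, 1 of 6 BH3-only genes was higher and 2 lower, 1 of 3 effectors was higher, and the 2 other anti-apoptotic genes overlapped. No other gene of these lists was called in either direction by covered bases. Mxd4 was lower in covered bases, with a ratio of 0.852, but higher by peaks, with a ratio of 1.263. The lowest ratio was that of Ccna2, the S phase cyclin, with 986 and 1541 bp in wild-type libraries against 72 and 289 bp without HDAC7, a ratio of 0.143 ± 0.129 (SD). Ccna2 was picked as the extreme of the 50 genes, so its ratio is a description and not a test. Of genes lower in both measures, Mxd3, a MAX partner that opposes MYC, the E2F family member E2f3 and the BH3-only gene Hrk came next. Their ratios were 0.533, 0.592 and 0.732. Cdkn1a, Bcl2l11 and E2f5, lower in covered bases alone, had ratios of 0.554, 0.659 and 0.7065.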

How the data were processed

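The authors trimmed reads (Cutadapt 1.6, run by Trim Galore 0.4.2), aligned them (bwa in the methods of the study, Bowtie2 in the submitters' processing notes), removed duplicates and normalized the signal with deepTools. They called peaks per library with MACS2 bdgpeakcall and removed those that met an input peak; whether before deposit is not given in the sources used here. The deposited values are peak positions without heights, on build mm10 per the labels, and no peak ended past a GRCm38 chromosome. Input libraries were not analysed here.

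Peaks sharing at least 1 bp with a window (gene ± 5 kb, GENCODE M21) were counted and their bases summed in Python 3.11.15 with NumPy 2.4.6. Genes of like length lay within 25%. Ratios are of means with a propagated SD, and genotypes were compared by a two-sided exact permutation test over 6 ways to choose 2 of 4 libraries. Regions are unions of overlapping peaks, present in both libraries of 1 genotype and absent from the other when gained or lost. The counting code was tested on simulated data. All 10 genes were named, with other pathway genes called in both measures (at most 4 per direction). The members and lists were chosen with earlier results of these data known. Same-numbered libraries were not taken as pairs.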

Additional observations from a re-analysis of the deposited data

How the results depend on the processing

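The number of genes with fewer covered bases in both HDAC7-deficient libraries was 5, and 17.1% of all protein-coding genes. With peaks at least 200 bp wide it was 3 (Ccnd2, Ccnd3 and Mcl1; 15.38% of all genes), and after division by the chromosome's density 2 (Cdkn2a and Mcl1; 16.96%). With 1 library left out it was between 5 and 8, while the share of all genes was between 27.16% and 45.74%, and it was 8 without HDAC7-deficient replicate 1 (29.57%). In the replicate block it was 6 (28.82%). None was higher, but 1, Bcl2l1, was after division by the chromosome's density (13.21% of all genes) and in the replicate block (19.35%), and 0 to 2 with 1 library left out (18.1% to 34.45%). The number with fewer peaks was 3, and 10.8% of all genes. It was 6 after division by the chromosome's density (18.03%) and 6 in the replicate block (18.05%), and 3 to 9 with 1 library left out (20.62% to 33.5%), the most without HDAC7-deficient replicate 1 (33.5%) and 6 without wild-type replicate 2 (22.49%). For more peaks the count was 0, but 1 with 2 kb on each side (11.53%), and 0 to 2 with 1 library left out (24.19% to 33.37%). Gained regions fell from 14 to 8 and lost regions from 35 to 14 with peaks at least 200 bp wide. With 1 library left out, an alternative chosen after seeing the data, gained regions numbered 40 to 142 and lost regions 55 to 233, because fewer libraries then have to agree. The deviations of same-numbered libraries from their group means correlated at 0.0850 over the covered percentages and at 0.135 over the peak counts of 21755 genes. With 2 numbers, and no label that ties them to a shared animal or day, these values do not settle whether the numbers pair the samples. Of the alternatives for covered ratios of single genes, 104 moved by less than 1 SD and 6 by more. For peak ratios the numbers were 110 and 10, among them Cdkn1b, at 0.333 over the gene body alone, and for the rank of coverage among genes of like length 37 and 3, which moved from 32.4% to 72.7% for Mcl1 and from 70.5% to 41.6% for Cdkn1b over the gene body alone. No ratio changed direction for a gene called lower in the same measure. Without heights, a difference in depth between libraries cannot be seen.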
